A study of Mus musculus with 4 samples.

Results

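Islet-only regions are the stretches of the mouse autosomes where methylated DNA was called in both pancreatic islet libraries and in neither sperm library. They were chosen from 4 deposited peak lists, a peak being an interval in which sequenced reads (tags) lie denser than the local background. Touching or overlapping peaks of the 4 lists were joined into union regions. Of 301535 autosomal union regions (307174 with the sex and mitochondrial chromosomes), 24601 held a peak of both islet lists and no sperm peak. Presence and absence in the lists chose these regions, so their number and their absence from sperm are a description and not a finding.

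The assay was MeDIP-seq, which uses an antibody against methylated cytosine to recover methylated fragments of sheared DNA for sequencing. The libraries came from ICR mice, an outbred strain, and each group below had 1 library. T2D islets came from 6 offspring, aged 3 weeks, of fathers with a type 2 diabetes model, and control islets from 6 offspring of the same age of control fathers. T2D sperm came from 6 such founder males and control sperm from 6 control founders, both at 16 weeks of age. T2D founders ate a diet in which fat supplied 33% of the energy, were given a low dose of streptozotocin, a beta cell toxin, at 12 weeks of age and stayed on the diet for 4 more weeks. Males whose fasting glucose then measured 7 to 11 mM were used. Control founders received a control diet, and all mothers were on standard diet. The labels describe the diet and streptozotocin for the founders only, so "T2D islets" names the father's condition. How the DNA of 6 animals became 1 library is not stated in the labels, nor is the sex of the offspring. Sperm was taken from the caudal epididymis and treated to lyse somatic cells. Because no annotation on the build of the files was used, no genes were assigned to regions, and the purity of the islets could not be checked against marker genes.

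In mammals, cytosines are methylated mostly where they precede a guanine. Sperm DNA is densely methylated over most of the genome, with CpG-rich promoters and the maternally imprinted control regions as known exceptions. After fertilisation most of the paternal pattern is erased, and somatic tissues such as islets rebuild their own pattern as cells differentiate. MeDIP responds to the number of methylated cytosines in a fragment, so a stretch can fail to be called because it is unmethylated or because it holds few CpG sites. The number of CpG sites is the same in all tissues of an animal, whereas their methylation may differ. Islets and sperm here came from different animals, and whether a peak is called also depends on sequencing depth.

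Regions called in both islet lists were mostly also called in sperm. Of 110491 such regions on autosomes, 24601 (22.3%, 95% Wilson interval 22.0% to 22.5%) had no sperm peak, 9308 (8.42%) had a peak in T2D sperm alone, 11209 (10.1%) in control sperm alone and 65373 (59.2%) in both. As a share of all autosomal union regions, islet-only regions made up 8.16%. Their mirror image, regions called in both sperm lists and neither islet list, numbered 27574 (9.14%). Islet-only regions held 15.0% of the autosomal peaks of the T2D islet list and 15.0% of those of the control islet list, with 16.2% and 15.9% of the tags in peaks. They covered 25.8 Mb in T2D islets and 24.7 Mb in control islets. Intervals here and below cover counting error only, since neighbouring peaks and PCR copies are not independent, and with 1 library a group no test between groups was possible.

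Each islet-only region was in most cases a simple pair of peaks. In 24489 of 24601 regions (99.5%) exactly 1 T2D and 1 control islet peak met, and the remaining 112 held up to 4 islet peaks. The pair overlapped closely. The overlap made up a median of 79.7% of the longer peak, and in 23218 pairs (94.8%) it made up at least 50% of each peak. The summits, where the tags of each peak were densest, lay a median of 32 bp apart (quartiles 14 and 71 bp), and 82.5% were within 100 bp. In regions called in all 4 libraries the same measures were 78.8%, 93.5%, 29 bp and 84.2%. These measures were thus similar in islet-only regions and in regions that sperm shared, but the joining rule bears on them unequally. The 2 peaks of an islet-only pair had to touch or overlap, whereas a sperm peak could join islet peaks that did not. Pairs without any overlap numbered 1 in islet-only and 354 in all-4 regions. The match of positions is therefore in part set by the rule. Across islet-only regions, log2 tags of T2D and control islets had a Pearson correlation of 0.84 and tags a Spearman correlation of 0.81. Both are descriptions across 24489 regions that share the same 2 libraries and that both depend on peak width.

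Peaks of islet-only regions were slightly narrower and held fewer tags than islet peaks of regions called in all 4 libraries. In T2D islets their median width was 947 bp (quartiles 733 and 1254 bp) against 981 bp in all-4 regions, and in control islets 902 bp (706 and 1189 bp) against 946 bp. A peak of an islet-only region held a median of 42 tags in T2D islets and 42 in control islets, against 48 tags in both libraries for all-4 regions. The central 90% ran from 21 to 121 tags in T2D islets and from 20 to 119 tags in control islets, and the highest counts were 607 and 589 tags. Enrichment, the authors' ratio of tags to the caller's background in each library, had a median of 7.28 in T2D islets and 7.38 in control islets, against 7.76 and 7.95 in all-4 regions. Regions with a peak in 1 sperm library resembled islet-only regions more than all-4 regions, with medians of 42 tags in T2D and 41 in control islets and enrichments of 7.18 and 7.32. The distributions overlapped widely in all of these measures. Peak calling itself used tags and enrichment, so these differences are not independent of the choice of regions.

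**Figure D1:**
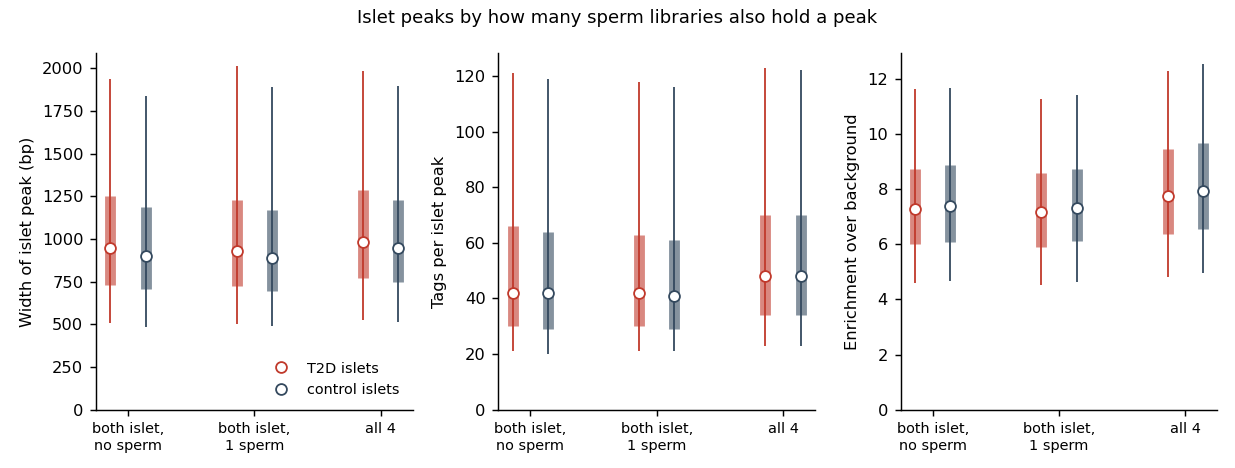
Width in bp, tags and enrichment of islet peaks in regions with 1 T2D and 1 control islet peak, by how many sperm libraries also held a peak. Circles are medians, thick bars quartiles and thin lines the central 90%. Median tags are 42 in both islet libraries for islet-only regions and 48 in both for regions called in all 4 libraries, with wide overlap.

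Whole regions, which join the T2D and the control peak, were wider than single peaks. Islet-only regions had a median width of 1081 bp (quartiles 858 and 1388 bp), from 334 to 6219 bp, and 1630 (6.63%) reached 2000 bp. The median for all-4 regions was 1389 bp, but these join 4 lists instead of 2 and are wider by construction. The both-sperm-only regions, which likewise join 2 lists, had a median of 1083 bp (quartiles 879 and 1377 bp). Between these classes, each defined by 2 libraries of a single tissue, widths were nearly equal. The widest islet-only region lay on chromosome 5 from 114744310 to 114750528 and joined 2 T2D peaks with 440 tags and 2 control peaks with 373 tags. The next was on chromosome 4 from 45055825 to 45059656, with 238 tags in T2D and 263 in control islets. On chromosome 7, from 140203818 to 140207586, the counts were 162 in T2D and 180 in control islets, and on chromosome 6, from 26115169 to 26118844, they were 219 and 139. Enrichment in these 4 regions was below the class median, at 3.76 to 5.75 in T2D and 3.74 to 6.48 in control islets.

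How often a both-islet region lacked a sperm peak depended on its strength in islets, but not evenly. Regions were ranked by the lower of their 2 ranks of the caller's score, which is 10 times the negative log10 of its p-value. In the weakest 10%, with a median score of 54.28 in either islet library, 30.3% (29.5% to 31.2%) were islet-only. The share declined to 17.1% (16.4% to 17.8%) in the next to strongest 10%, and was higher again in the strongest 10%, at 19.1% (18.4% to 19.8%) or 2110 of 11049 regions. Over the same range the share with a peak in 1 sperm library declined without a turn, from 25.6% to 8.92%. In the strongest 1%, 212 of 1105 regions (19.2%, 17.0% to 21.6%) were islet-only and 6.33% had 1 sperm peak. In the strongest 0.1%, 10 of 110 regions (9.09%, 5.01% to 15.9%) were islet-only. Strong islet regions were therefore mostly called in both sperm libraries, at 72.0% of the strongest 10% and 85.5% of the strongest 0.1%. The rest were more often called in neither than in 1, though in the strongest 0.1% these shares were close, at 9.09% and 5.45%.

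**Figure D2:**
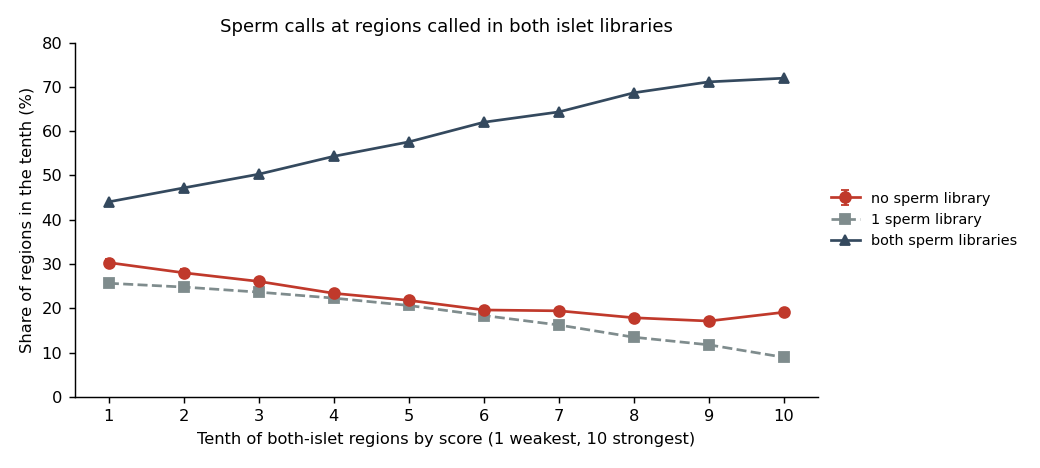
Share of both-islet regions with a peak in no, 1 or both sperm libraries, against strength in islets in steps of 10% of the regions. Bars on the islet-only points are 95% Wilson intervals. The islet-only share goes from 30.3% in the weakest to 17.1% and then 19.1% at the strong end, while the share with 1 sperm peak keeps declining to 8.92%.

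The most enriched islet-only regions were mostly narrow, except for the first. They were ranked by the lower of their 2 enrichments among the 24489 regions with 1 peak of each list. The first, on chromosome 5 from 16009336 to 16010485, was 1150 bp wide and had 84 tags in T2D and 56 in control islets with enrichments of 17.92 and 16.83, and the nearest sperm peak was 5.78 kb away. The region on chromosome 6 from 114515241 to 114515812 had 47 tags in T2D and 55 in control islets, with enrichments of 16.95 and 16.78. On chromosome 14, from 124129221 to 124129785, 42 tags were found in T2D and 48 in control islets, with enrichments of 16.70 and 18.11. Of these 3 regions only the first differed between islet libraries by as much as 1.5-fold, with a T2D to control tag ratio of 1.5 (exact interval 1.06 to 2.14). The others of this group were chromosome 13 from 3607898 to 3608679 with 50 tags in T2D and 64 in control islets, chromosome 12 from 22114443 to 22115034 with 58 and 48, and chromosome 1 from 47799917 to 47800460 with 46 and 49. Their counts were not far above the median of 42, so their high enrichment came with a narrow peak: apart from the first region, peaks of this group were 528 to 735 bp wide. All of them lay over 5 kb from a sperm peak, and the chromosome 1 region lay 12.0 kb from it.

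Islet-only regions with the most tags were broad instead, with modest enrichment, and 4 of the 6 lay within 1 kb of a sperm peak. On chromosome 2, the region from 154845280 to 154848380 held 607 tags in T2D and 589 in control islets, at enrichments of 7.16 and 7.73, and a sperm peak began 632 bp away. The region on chromosome 4 from 43995709 to 43998155 held 351 tags in T2D and 319 in control islets, 474 bp from a sperm peak. On chromosome 10, from 93308014 to 93310537, the counts were 318 in T2D and 342 in control islets, with a sperm peak 287 bp away. Among all islet-only regions 19.1% lay within 1 kb of a sperm peak, and these 6 are extremes picked by tags. Those on chromosomes 8 and 6, given below, lay 8.33 and 4.53 kb away. Next were chromosome 11 from 19919669 to 19922016, with 344 tags in T2D and 310 in control islets, and chromosome 8 from 3994441 to 3997813, with 299 and 320. The last was chromosome 6 from 23107172 to 23109550, with 311 tags in T2D and 280 in control islets. T2D to control ratios of the 6 ran from 0.930 to 1.11, and every exact interval included 1.

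In the full lists, most islet-only regions lay within 10 kb of a sperm peak. The median distance was 2943 bp (quartiles 1334 and 6490 bp), 4687 regions (19.1%) had a sperm peak within 1 kb, and 3876 (15.8%, 15.3% to 16.2%) were more than 10 kb from any. These values depended on which peaks counted: with scores of at least 100 in all lists, the rule gave 11379 regions at a median of 8538 bp, 44.6% of them over 10 kb away, and with the best 50% of each list 15582 at 6293.5 bp and 34.6%. Both-sperm-only regions lay a median of 2972.5 bp from the nearest islet peak (quartiles 1446 and 5957 bp), and 12.1% (11.7% to 12.5%) were over 10 kb away. Regions called in a single islet library and no sperm library lay a median of 2836 bp from a sperm peak. Up to the median, the distances of these classes were close. At the far end, both-sperm-only regions parted from the other classes. Regions of a single islet library resembled islet-only regions there, with 14.3% over 10 kb and 119 regions (0.245%) over 100 kb from a sperm peak. Over 100 kb from the nearest peak of the other tissue lay 65 islet-only regions (0.264%, 0.207% to 0.337%) and 6 both-sperm-only regions (0.0218%, 0.00997% to 0.0475%), and the farthest islet-only region was 1412 kb from a sperm peak. The rule sets a boundary at a gap of 0 bp. Just inside it, 355 islet-only regions (1.44%) had a sperm peak within 100 bp, with a median of 60 tags in T2D and 59 in control islets. Just outside it, 163 both-islet regions shared at most 100 bp with a sperm peak, with medians of 58 and 53 tags.

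**Figure D3:**
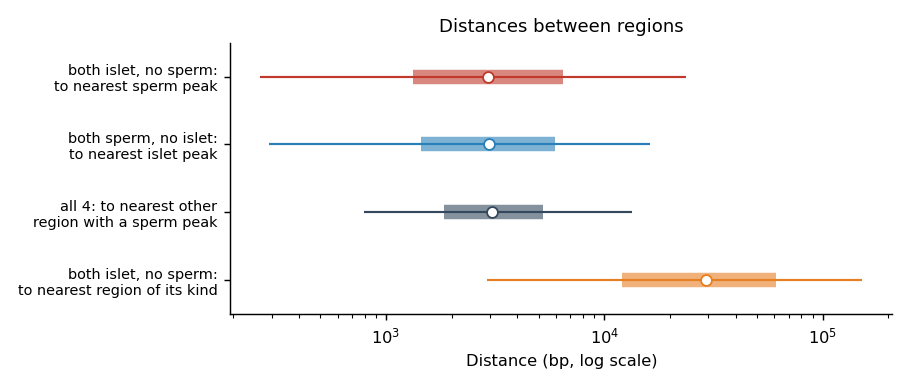
Distances in bp on a log scale from regions of each class to the nearest peak or region named at the left. Circles are medians, thick bars quartiles and thin lines the central 90%. Islet-only regions and both-sperm-only regions have nearly the same median distance to the other tissue, 2943 and 2972.5 bp, but the islet-only distances reach further, with a 95th percentile of 23729 bp against 16248 bp.

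The character of islet-only regions changed with distance from sperm peaks. Within 1 kb they held a median of 53 tags in T2D and 53 in control islets at enrichments of 6.45 and 6.56. Between 10 and 100 kb they held 35 tags in T2D and 33 in control islets at enrichments of 8.28 and 8.31. The 65 regions beyond 100 kb had 36 and 32 tags at 8.66 and 8.71. Up to 100 kb, tags and width thus declined with distance while enrichment went up, in both islet libraries. Median peak width was 1024 bp in T2D and 988 bp in control islets within 1 kb, and 854.5 and 813.5 bp between 10 and 100 kb.

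Of the 65 regions beyond 100 kb, 25 lay on chromosome 7 and 16 on chromosome 4, and 9 autosomes had none. With enrichment at or above each list's median, the farthest was on chromosome 7 from 9585956 to 9587010, 746 kb from a sperm peak, with 36 tags in T2D and 35 in control islets. The next, on chromosome 14 from 3071856 to 3072380, lay 579 kb away with 18 tags in T2D and 23 in control islets. On chromosome 7, the region from 23558180 to 23558866 was 533 kb away and held 46 tags in T2D and 37 in control islets. A second region of chromosome 14, from 3129766 to 3130336, was 521 kb away with 26 tags in T2D and 20 in control islets, so that both lay at the very start of that chromosome's covered part. The last 2 were neighbours on chromosome 7, from 15874074 to 15875095 with 35 tags in T2D and 56 in control islets and from 15864322 to 15865211 with 25 and 35. They lay 314 and 305 kb from a sperm peak.

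Long stretches without sperm peaks did not hold the bulk of islet-only regions. The gaps between neighbouring regions with a sperm peak had a median length of 5092 bp and summed to 2128 Mb, with 11.5 islet-only regions per Mb on average. The density was 7.86 per Mb in gaps of up to 5 kb, where little room is left between sperm peaks, 14.8 per Mb in gaps of 5 to 10 kb and 15.0 per Mb in gaps of 10 to 20 kb. It was 10.9, 8.73 and 5.79 per Mb in gaps of 20 to 50, 50 to 100 and over 100 kb. Regions called in a single islet library followed the same course, from 30.5 per Mb in gaps of 5 to 10 kb to 10.6 per Mb in gaps over 100 kb. The 912 gaps over 100 kb made up 7.80% of the gap length and held 960 islet-only regions, or 3.91%. Gap length includes any sequence on which reads cannot be placed, and its part was not tested.

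Some of these long gaps nonetheless held several islet-only regions. The gaps with the most, chosen after their values were seen, held 8 each. They lay on chromosome 7 from 110379961 to 110620781, from 5318316 to 5688728 and from 8839654 to 10662386, on chromosome 3 from 91411417 to 91747837 and on chromosome 4 from 111700609 to 112219010. The first spanned 241 kb and the widest 1823 kb, in all of which no sperm peak was called.

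Along the chromosome, islet-only regions of the full lists followed each other only a little more often than their share of all regions. The next union region was also islet-only for 2183 of 24595 regions (8.88%, 8.53% to 9.24%), against a share of 8.16% among all autosomal regions. The same measure gave 9.09% (8.76% to 9.43%) against a share of 9.14% for both-sperm-only regions, and 24.4% against 21.7% for all-4 regions. After an islet-only region, the next region was called in all 4 libraries in 19.5% of cases (21.7% of all regions) and was both-sperm-only in 11.2% (9.14% of all regions). Regions of one tissue alone thus neighboured each other across tissues somewhat more often than their overall share. The nearest other islet-only region lay a median of 29131 bp away (quartiles 12088 and 61299 bp), against 24449 bp between the slightly more numerous both-sperm-only regions. With scores of at least 100, the nearest other islet-only region lay 60790 bp away. At that limit 11.2% of islet-only regions were followed by another, against a share of 8.52%. With the best 50% of each list it was 11.7% against 9.15%, so the excess was larger in both settings.

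Unbroken runs of islet-only regions were short. Of 22418 runs, 20514 were single regions, 1664 were pairs, 206 held 3, 29 held 4 and 5 held 5 regions, and none was longer. The tightest run of 5 lay on chromosome 7 from 30510132 to 30525763, 15.6 kb in all, with 218 tags in T2D and 311 in control islets. The next, on chromosome 1 from 3044424 to 3102739, held 149 tags in T2D and 184 in control islets and spanned 58.3 kb. A second run on chromosome 1, from 119988503 to 120047922, held 338 tags in T2D and 341 in control islets. The run on chromosome 2 from 88018838 to 88143515 held 160 and 144 tags, and that on chromosome 7 from 9027957 to 9769883 held 159 and 142. This last run spanned 742 kb, and no sperm peak lay within 188 kb of any of its regions. It lay inside the widest of the gaps named above, as did the region 746 kb from a sperm peak, so these are not separate observations. Both-sperm-only regions also had runs of up to 5, with 216 runs of 3 or more against 240 for islet-only regions.

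On the scale of 1 Mb, the number of islet-only regions varied less than that of the other classes. The 2417 windows held a mean of 10.2 islet-only regions, with a variance 2.28 times the mean, and 8 windows held none. The ratio of variance to mean was 3.37 for both-sperm-only regions (mean 11.4) and 8.72 for all-4 regions (mean 27.0). These ratios were not adjusted for the unequal means. The share of union regions that were islet-only behaved differently. In the 20% of windows with the fewest union regions (1 to 68 per Mb), 13.9% of regions (13.5% to 14.3%) were islet-only, and 40.9% of the both-islet regions were. In the denser windows the islet-only shares, in steps of 20% of the windows, were 9.32%, 7.62%, 7.00% and 7.47%. Both-sperm-only regions went the other way at the sparse end, with 7.60% there and 9.11% to 9.71% in the denser windows. Among 2373 windows with at least 30 union regions, the islet-only share reached 16.3%, a level of 2 times the background, in 181 windows, and 11 windows held both-sperm-only regions at 2 times their own background.

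**Figure D4:**
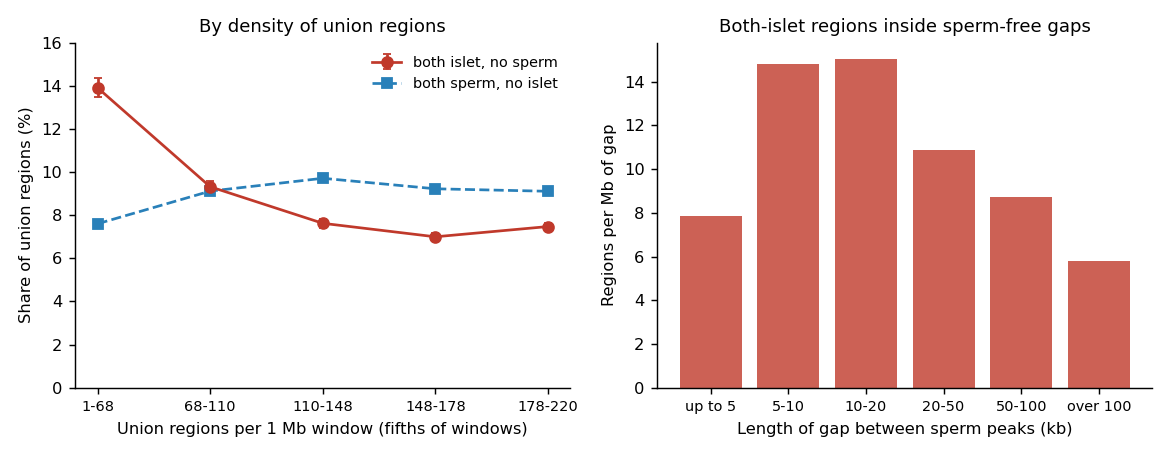
Left, the share of union regions that were islet-only or both-sperm-only, in steps of 20% of the 1 Mb windows ordered by their number of union regions, with 95% Wilson intervals on the islet-only points. Right, islet-only regions per Mb of gap between sperm peaks, by gap length. The islet-only share is 13.9% in the sparsest windows and 7.00% to 9.32% elsewhere, yet their density is lowest in the longest gaps.

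The window with the most islet-only regions lay on chromosome 18 from 37000001 to 38000000, where 43 of 134 union regions (32.1%) were islet-only, 21 were called in all 4 libraries and 13 in both sperm libraries alone. Its islet-only regions held 20 to 256 tags (median 78) in T2D islets and 20 to 258 tags (median 59) in control islets. They were broad, with a median width of 1690 bp against 1081 bp for islet-only regions in general, and lay a median of 3.88 kb from a sperm peak. Chromosome 13 from 62000001 to 63000000 came next with 32 of 108 regions (29.6%), at a median of 40.5 tags in T2D and 37.5 in control islets. The others by number were dense in regions of every kind. These were chromosome 10 from 120000001 to 121000000 with 29 of 208, chromosome 16 from 91000001 to 92000000 with 29 of 200 and chromosome 10 from 118000001 to 119000000 with 26 of 217.

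By share rather than number, the leading window was on chromosome 7 from 32000001 to 33000000, where 15 of 42 regions (35.7%) were islet-only and 4 were called in all 4 libraries. Chromosome 8 from 53000001 to 54000000 followed with 14 of 43 (32.6%), then the chromosome 18 window, chromosome 5 from 59000001 to 60000000 with 19 of 61 (31.1%) and chromosome 10 from 129000001 to 130000000 with 16 of 52 (30.8%). The last of these held 0 both-sperm-only regions. In the chromosome 5 window the islet-only regions were narrow and sharp, with a median width of 792 bp and median enrichments of 9.78 in T2D and 9.70 in control islets. Those of the chromosome 18 window had 6.71 and 6.80. Windows rich in islet-only regions thus differed in the kind of peak they held.

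All 19 autosomes held islet-only regions in similar shares. These ran from 7.43% (7.05% to 7.84%) of union regions on chromosome 11, 7.47% on chromosome 9 and 7.50% on chromosome 19 up to 9.31% (8.88% to 9.75%) on chromosome 10. The next highest was chromosome 3 at 8.65% (8.25% to 9.07%). Per Mb of covered chromosome, chromosome 10 also led with 12.6 islet-only regions and chromosome 14 had the fewest with 8.67. Median distance to a sperm peak ranged over the autosomes from 2493 bp on chromosome 19 to 3340 bp on chromosome 7. When each autosome was divided into 10 equal parts, the share was highest in the parts at its start, at 9.13% and 9.07%, and lay between 7.12% and 8.46% in the others.

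Whether islet-only regions differed between T2D and control islets was then examined, which the choice of regions did not use directly. Tag counts were compared as T2D over control, scaled by the median ratio over all both-islet regions, which was 1. Each region had to be called in both lists, which keeps large differences out. Islet-only regions held 1311064 tags in T2D and 1286134 in control islets, giving a ratio of 1.019 (exact 1.017 to 1.022), against 1.004 (1.002 to 1.005) for all-4 regions. T2D islets had more tags in 12416 islet-only regions (50.5%) and fewer in 11270 (45.8%), against 48.8% and 48.2% of all-4 regions. The median log2 ratio was 0.02, with a central 90% from -0.69 to 0.77. A shift of this size is far smaller than the spread between regions and, with 1 library each, it cannot be told from a difference between libraries. These counts were also not divided by width, and islet-only peaks covered 25.8 Mb in T2D and 24.7 Mb in control islets. Per kb of single peaks, islet-only regions held a median of 45.7 tags in T2D and 46.6 in control islets. All-4 regions held 49.1 and 50.5. The part of width in the tag differences was not tested.

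At least 1.5-fold more tags in T2D islets were found in 2566 islet-only regions (10.4%), against a background of 10.3% of both-islet regions. At least 1.5-fold fewer were found in 1950 (7.93%), against a background of 8.97%. Both shares are near the background, so neither is a result about islet-only regions. Since the scatter of the ratio varied with the number of tags, regions were also compared at equal tags. Peaks held at least 18 tags in each islet library, which limits the ratio at small counts. Below 40 summed tags, 0 regions of either class passed 1.5-fold. With 40 to 59 summed tags, 8.35% of islet-only regions were higher and 6.75% lower in T2D islets, against 8.51% and 9.17% of all-4 regions. With 60 to 79 tags summed over both libraries, 14.6% of islet-only regions were higher and 10.9% lower in T2D islets, against 12.9% and 11.8% of all-4 regions. With 120 or more summed tags the shares were 8.21% and 5.81% in islet-only and 8.26% and 7.59% in all-4 regions. The higher share grew with distance from sperm, from 8.83% (8.05% to 9.68%) within 1 kb over 9.89% between 1 and 3 kb and 11.0% between 3 and 10 kb to 11.9% (10.9% to 13.0%) between 10 and 100 kb and 24.6% (15.8% to 36.3%), or 16 of 65, beyond. The lower share over the same 5 steps was 7.62%, 7.74%, 8.51%, 7.40% and 9.23% (4.30% to 18.7%), so it was also highest beyond 100 kb, where 6 of 65 regions were lower. Tags per region also declined with distance up to 100 kb, and their part in the higher share was not tested. Over all both-islet regions the higher share itself varied with summed tags. It was 8.26% at 40 to 59, 13.4% at 60 to 79, 11.5% at 80 to 119 and 8.54% at 120 or more. Of the 65 far regions, 25 lay on chromosome 7 and 16 on chromosome 4, and their intervals treat them as independent.

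**Figure D5:**
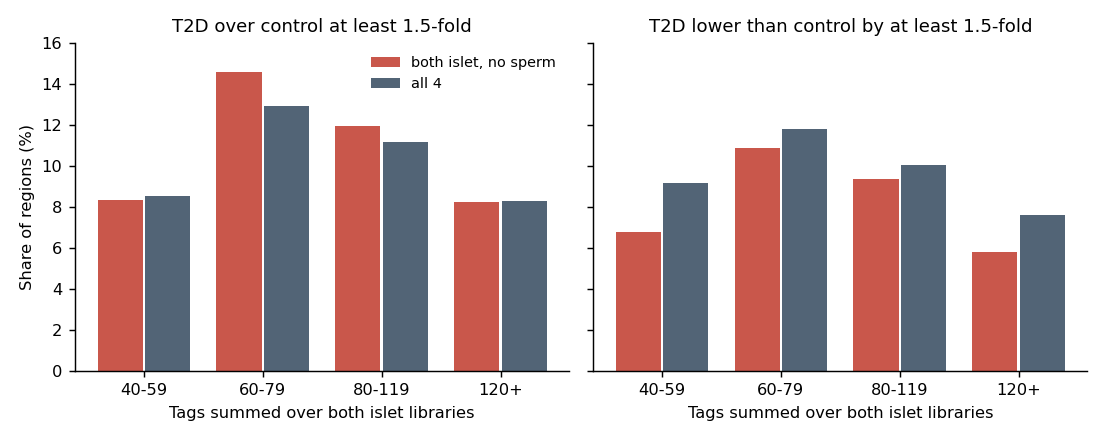
Share of regions whose islet tag counts were at least 1.5-fold higher (left) or lower (right) in T2D than in control islets, by tags summed over both islet libraries, for islet-only regions and regions called in all 4 libraries. Higher shares are 14.6% in islet-only and 12.9% in all-4 regions at 60 to 79 tags, and 8.21% and 8.26% at 120 or more. Lower shares are 10.9% and 11.8%, and 5.81% and 7.59%.

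The largest differences were sought among 9002 islet-only regions with at least 40 summed tags and both enrichments at or above their list's median. On chromosome 13, the region from 3179004 to 3180279 had 77 tags in T2D and 21 in control islets, or 3.67 times as many (2.24 to 6.26, exact interval). Chromosome 12 from 8349959 to 8351539 had 63 tags in T2D and 20 in control islets, a ratio of 3.15 (1.88 to 5.50). On chromosome 7, from 48373157 to 48374365, the counts were 87 in T2D and 29 in control islets, and on chromosome 14, from 15381747 to 15382781, they were 72 and 25. In each of these regions the T2D peak was also the wider, as on chromosome 13 with 1276 bp against 467 bp. The ratios and their intervals thus compare counts from stretches of unequal width. They are not differences in tags per bp, and the part of width in them was not tested.

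Lower in T2D islets was, first of all, chromosome 7 from 55660566 to 55661633, with 25 tags in T2D and 105 in control islets, a ratio of 0.238 (0.147 to 0.371). Chromosome 13 from 31975999 to 31977294 had 22 tags in T2D and 71 in control islets, a ratio of 0.310 (0.183 to 0.506). On chromosome 2, from 83918413 to 83919629, there were 31 tags in T2D and 92 in control islets, and on chromosome 3, from 15718744 to 15719852, there were 21 and 61. Here the control peak was the wider in each case, so these ratios too compare stretches of unequal width. These regions are the extremes of many, their intervals cover the counting of tags in these libraries only, and 80.5 and 79.1 kb separate those of chromosomes 7 and 3 from the nearest sperm peak.

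Among the named windows, T2D and control islets differed most in summed tags on chromosome 18 from 37000001 to 38000000. Its 43 islet-only regions held 3581 tags in T2D and 3122 in control islets. T2D islets had more tags in 29 of them, 10 by at least 1.5-fold, and fewer in 13, 3 by at least 1.5-fold, with a median log2 ratio of 0.24. In the chromosome 13 window the 32 regions held 1596 tags in T2D and 1478 in control islets, with 4 regions past 1.5-fold in either direction. Over all both-islet regions 10.3% were higher and 8.97% lower by this threshold, and the counts of the chromosome 13 window and the 3 lower regions on chromosome 18 are near those shares. The window was named for its number of regions and not for this difference, and neighbouring regions of 1 library are not replicates.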

How the data were processed

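MeDIP-seq peak lists of 4 libraries, 1 per group, were analysed. Mouse build mm9 and the tool CASAVA 1.4 are named in the submitters' processing notes. For sperm, the authors ran MACS on reads of 49 bp with no control library, a p-value limit of 1.00e-05, a band width of 200 bp and a local background over 5000 bp, per the file headers. The islet lists have identical columns but no header comments, so the caller behind them is unknown. The deposited tag counts are whole numbers, not scaled to depth. The deposited score is 10 times the negative log10 of the p-value, never below 50. The deposited fold enrichment is relative to the caller's background in that library. Score and enrichment are the authors' values relative to 1 library. Regions were ranked by the lower of their T2D and control islet values, and tag counts were compared between the islet lists after scaling by the median ratio. Per the file headers, T2D sperm held 31833988 and control sperm 31053754 unique tags. Peaks held 8204393 tags in T2D and 8223861 in control islets, but the total depth of the islet libraries is unknown, so sampling limits cannot be given for the absence of a peak. Libraries had 15 PCR cycles and fragments of about 250 bp, per the labels.

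Peaks were joined into union regions with numpy 2.4.6 and pandas 2.3.3, and the numbers of union and islet-only regions were checked against bedtools 2.31.1. The steps were tested on simulated lists. Positions count from 1, and distances are the bases between regions. Shares have 95% Wilson intervals (scipy 1.17.1), and tag ratios have exact binomial ones. A threshold of 1.5-fold was used for tags. With 1 library per group, no p-value was computed. Only autosomes entered, as the rule for the regions asks.

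The regions and all summaries were chosen with earlier results of these data known. Regions were named by rule: the 6 of highest enrichment and of most tags (by the lower of both islet values, 1 peak of each list), the 6 farthest from sperm, the 4 highest and 4 lowest tag ratios, the 4 widest, the 5 longest runs, and the 5 leading windows of 1 Mb by number and by share. Alternatives were other score limits, joining distances, overlaps, list lengths, library pairs and chromosomes. Sequences and genes at the regions were not analysed here, since no genome of this build was used.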

Additional observations from a re-analysis of the deposited data

Results flagged for a closer look

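The X chromosome lay outside the comparisons above, which used autosomes alone. By the same presence rule, 1147 of its 5578 union regions, or 20.6% (Wilson interval 19.5% to 21.6%), were called in both islet lists and neither sperm list, against 8.16% (8.06% to 8.26%) on autosomes. A count of 0 would have allowed a share of up to 0.0538% on X. Of the both-islet regions of X, 55.0% had no sperm peak, against 22.3% on autosomes, and the X regions lay a median of 21537 bp from the nearest sperm peak, against 2943 bp. Sperm came from males, the sex of the offspring is not given in the labels, and tissue and sex cannot be told apart in these values.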

How the results depend on the processing

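The number of islet-only regions (24601) depended on how strong a peak had to be and on how many lists were used. With scores of at least 100 it was 11379 (8.52% of union regions, median width 1159 bp, 61 tags in T2D and 60 in control islets). These lay a median of 8538 bp from a sperm peak and 44.6% were over 10 kb away; 11.2% were followed by another, the nearest of which lay 60790 bp away, and 6.26% were higher and 5.20% lower in T2D islets. With the best 50% of each list it was 15582 (9.15%, 1145 bp, 55 and 55 tags), with distances of 6293.5 bp to sperm (34.6% over 10 kb) and 45580 bp to each other, 11.7% followed by another, and 7.48% higher and 5.94% lower. In both settings the share followed by another exceeds the share of all regions by more than in the full lists, and weak sperm peaks no longer count as presence. A T2D pair of lists alone gave 67699 regions (27.7%, 851 bp, 34 tags, 3913 bp from sperm, 20.3% over 10 kb, 28.3% followed by another, 10928 bp apart). The control pair gave 66108 (27.4%, 816 bp, 34 tags, 3850 bp, 19.99%, 28.0%, 10972 bp).

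With no sperm peak allowed within 1000 bp, the share was 6.60%, the width 1061 bp, tags 41 in T2D and 39 in control islets, and distances 3872 bp to sperm (19.5% over 10 kb) and 36515 bp to each other, with 9.45% followed by another. Joining peaks within 500 bp gave 7.80%, 41 tags in T2D islets, 3392 bp (17.4% over 10 kb), 32485 bp, 9.26% followed by another, and 10.9% higher and 8.42% lower. A reciprocal overlap of 50% between islet peaks gave 7.72%, 1060 bp, 30956 bp, 8.39% followed by another, and 8.59% higher and 7.08% lower. Equal list lengths gave 8.93%, 3123 bp (16.5% over 10 kb), 9.49% followed by another and 27360 bp. Adding X gave 8.38%, 3107.5 bp (18.0% over 10 kb) and 9.54% followed by another. A 2-fold threshold left 2.05% higher and 1.41% lower in T2D islets, and windows of 100 kb held a mean of 1.04 regions. The other 35 values stayed within their counting intervals or, for numbers of regions, within 1.5 times. The median log2 ratio was among them under every alternative run, with values of 0 to 0.03.

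No paired analysis was possible because each group had 1 library. The depth of the islet libraries limits what absence from a list means: it was not stated, so a missing peak is not a measured lack of methylation.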
